A study of Mus musculus with 12 samples.

Results

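The interferon-stimulated genes Isg15, Usp18, Irf7, Oas1a, Ifit1, Ifit3, Rsad2, Ifi44 and Mx1 were followed in the liver and esophagus of 6 mice. These 9 genes were chosen by symbol, through the RefSeq accession attached to each array probe, out of 16535 genes that could be named in this way. Of the 9 listed genes, 8 were matched to 10 probes, 3 of them for Rsad2 and 1 for each of the others, and Mx1 had no matched probe and is only named. All mice carried Rosa26rtTA/+, which supplies a doxycycline-dependent transactivator. The 3 transgenic mice were Col1a1tetO-Nanog/+;Rosa26rtTA/+ and are called TG, and the 3 controls were Col1a1+/+;Rosa26rtTA/+ and are called CTR. The mice were about 8 months old, male and of mixed 129Sv/C57BL6 background, and both genotypes drank doxycycline at 0.2 mg/ml in 7.5% sucrose for 48 h, so the drug and the transactivator are common to all groups. One array measured the liver and 1 the esophagus of each mouse, which gives 3 arrays in each of the 4 groups, and TG1, TG2, TG3, CTR1, CTR2 and CTR3 name the mice. The comparison of genotypes asks what forced expression of Nanog, a transcription factor of pluripotent cells, changes in each organ.

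Type I interferons signal through the Ifnar1 and Ifnar2 receptor chains and their kinases to transcription factors that bind the interferon-stimulated response element in the promoters of target genes. Isg15 is a ubiquitin-like protein that is conjugated to other proteins, and Usp18 removes it and restrains receptor signalling. Irf7 is a transcription factor that amplifies the production of interferon. Oas1a belongs to the family that makes 2'-5' oligoadenylates in response to double-stranded RNA, the Ifit proteins bind viral RNA or factors of translation, and Rsad2, or viperin, is a radical SAM enzyme with antiviral activity. Ifi44 is a widely used marker of the response whose biochemical role is less clear.

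RefSeq promoter windows of the GRCm38.p6 build, running from 250 bases before to 50 bases after the start, were given for 7 of the 9 genes, Usp18 and Mx1 being the exceptions. The core of the response element, GAAA and GAAA with any 2 bases (NN) between them, was searched on both strands, with overlapping matches allowed. It was found in 5 of the 7 windows and in 1131 of all 32851 windows (3.44%). The matched stretches are shown because 5 of the members hold this motif, a feature the array data did not use. They are written on the strand of the gene, 5′ to 3′, and capitals mark the matched bases, which read TTTC, 2 bases and TTTC where the match is on the opposite strand.
Isg15, chr4:156200855-156200916, minus strand: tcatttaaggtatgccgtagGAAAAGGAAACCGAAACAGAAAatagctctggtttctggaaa
Oas1a, chr5:120907526-120907565, minus strand: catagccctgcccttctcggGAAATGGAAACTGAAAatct
Ifit1, chr19:34640765-34640833, plus strand: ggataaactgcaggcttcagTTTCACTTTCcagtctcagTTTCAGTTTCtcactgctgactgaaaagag
Ifit3, chr19:34583353-34583436, plus strand: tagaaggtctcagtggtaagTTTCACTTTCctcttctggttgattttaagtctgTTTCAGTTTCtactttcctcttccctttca
Rsad2, chr12:26456543-26456592, minus strand: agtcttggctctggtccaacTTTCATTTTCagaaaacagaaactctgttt

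Isg15 held 3 overlapping matches in a row, the first of which began 78 bases before the start. Oas1a held 2 overlapping matches, beginning 20 and 14 bases before the start. Ifit1 held 2 separate matches, at 104 and 85 bases, Ifit3 held 2 at 156 and 122 bases, and Rsad2 held 1 at 120 bases, all on the opposite strand. No match was found in the windows of Irf7 and Ifi44. Of 71 windows of other type I response genes, 28 held the motif (39.4%), as did 11 of 20 windows of interferon ligands (55%), 11 of 30 of interferon gamma response genes (36.7%), 3 of 21 of sensing genes (14.3%) and 2 of 11 of signalling genes (18.2%). Of 5 windows of interferon receptors 0 did.

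All levels below are log2 signals minus the 75th percentile of the array, so a difference of 1 is a doubling, and levels of different genes are not compared because their probes differ. Arrays of one organ correlated at 0.939 to 0.986 over units, which are the named genes and the probes without a symbol. Of the 41174 probes, 56.5% to 81.8% were well above background per array. On 0 of the 12 arrays, TG or CTR, did the probe of Nanog reach this level over background, so it does not check the genotype labels. Liver TG3 stood apart, with the highest level of the 6 livers in 32.0% of the units tested. Esophagus CTR3 was the highest esophagus in 28.1%. The clock gene Per2 was low in livers TG2 (-1.73) and CTR1 (-1.60), against 0.66 to 1.27 in the other 4 livers. In esophagus it was low in TG1 (-2.92) and TG2 (-2.46), against -0.73 to 0.26 in the other 4, so the livers and esophagi labelled TG1 and CTR1 did not match each other in this gene. Hepatocyte markers were called lower in control esophagus than in control liver for 6 of 6 genes, and skeletal muscle markers were called higher for 8 of 8, as the organ labels say. In these bulk samples, fewer cells of a type and less RNA per cell cannot be told apart.

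The members did not separate TG from CTR esophagus as a group. In the esophagus of TG3, Isg15, Oas1a and Irf7 stood far above all other esophagi. The esophagi of TG1 and TG2 lay below all 3 controls in every member other than Ifi44. The share of all units with TG1 and TG2 below all 3 controls was not counted, so this has no background beside it. No member passed an adjusted p of 0.05 in the comparison of TG with CTR esophagus (limma, Benjamini-Hochberg over 23211 units), 0 of 8, beside 0 of all units (0%). At an unadjusted p under 0.05 the counts were 2 of 8 and 3.85% of all units, and both members were lower in TG, beside 2.05% of all units. The members stood higher in TG for 5 of 8, with a median difference of 0.19, beside 49.6% of all units and a median of -0.0034.

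**Figure D1:**
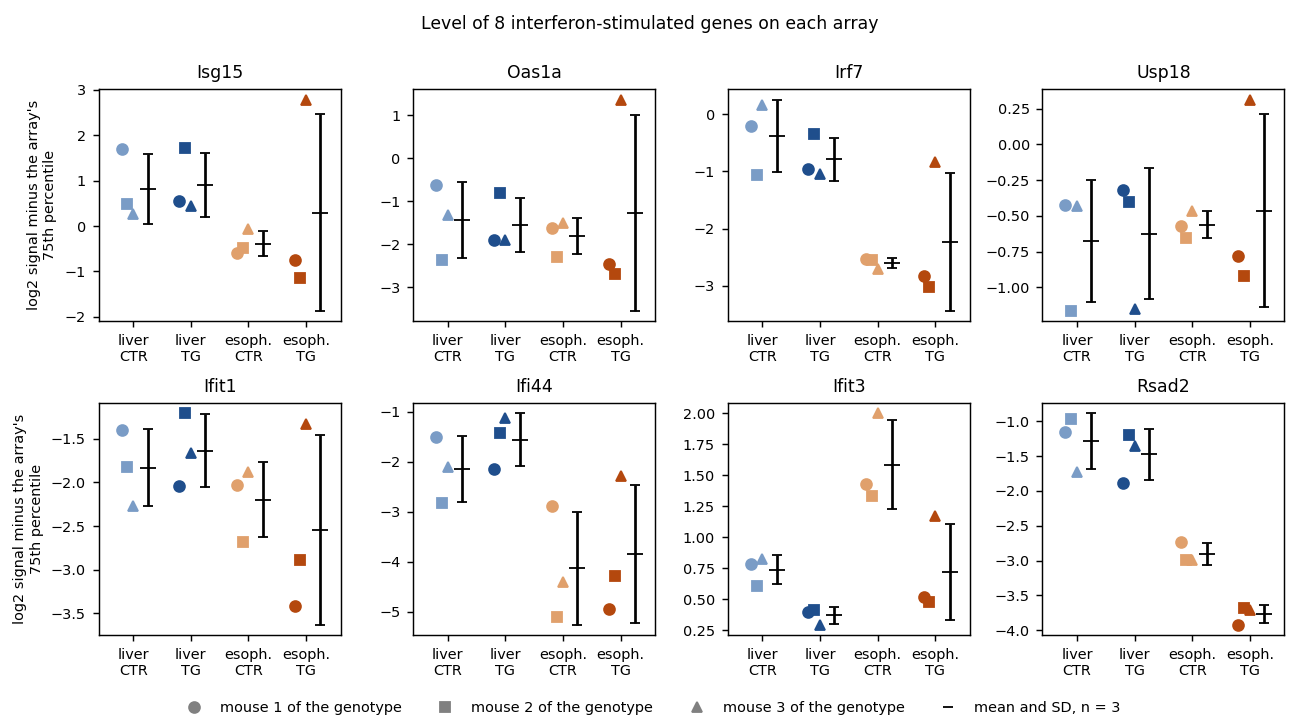
Level of each of the 8 members (log2 signal minus the 75th percentile of the array, y axis) on each array by group (x axis), with the mouse number as the marker shape and the mean and SD of 3 arrays beside the points. The esophagus of TG3 stands far above the other 5 esophagi in Isg15, Oas1a and Irf7, and the TG and CTR esophagi do not overlap in Ifit3 and Rsad2.

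Isg15, the ubiquitin-like modifier, was at -0.75 in esophagus TG1, -1.15 in TG2 and 2.78 in TG3, and at -0.60, -0.49 and -0.065 in CTR1, CTR2 and CTR3. TG3 was thus 7.20-fold above the next highest esophagus, and both other TG esophagi were below all controls. The mean difference was 0.68 (SE 0.88, adjusted p = 1.00, limma). Usp18, which reverses the conjugation of Isg15, was at -0.78, -0.92 and 0.31 in TG1, TG2 and TG3, and at -0.57, -0.66 and -0.46 in the controls. Its order was the same, with TG3 the highest and TG1 and TG2 below all controls, and the difference was 0.10 (SE 0.36).

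Irf7, the transcription factor, was at -2.83 in TG1, -3.02 in TG2 and -0.84 in TG3, while the controls lay close together at -2.54, -2.55 and -2.71. TG3 was 3.25-fold above the next esophagus, the other TG esophagi were below all controls, and the difference was 0.37 (SE 0.52). Oas1a, the oligoadenylate synthetase, was at -2.47, -2.70 and 1.36 in TG1, TG2 and TG3, and at -1.61, -2.29 and -1.51 in the controls. TG3 was 7.30-fold above the next esophagus, again with TG1 and TG2 below all controls, and the difference was 0.53 (SE 0.93).

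In Ifit1, which binds viral RNA, the levels were -3.42, -2.89 and -1.32 in TG1, TG2 and TG3 and -2.03, -2.68 and -1.88 in the controls. TG3 was the highest here too, but by 1.47-fold, and the difference was -0.35 (SE 0.49). Ifi44 varied widely in both groups, at -4.95, -4.28 and -2.29 in the TG esophagi and -2.89, -5.10 and -4.40 in the controls. TG3 was 1.51-fold above CTR1, the groups overlapped, and the difference was 0.29 (SE 0.72).

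Ifit3 and Rsad2 had another order. Ifit3 was at 0.52, 0.48 and 1.17 in TG1, TG2 and TG3, and at 1.43, 1.33 and 2.00 in the controls. All 3 TG esophagi were below all 3 controls, with TG3 the nearest to them. The difference was -0.86 (SE 0.23), with an unadjusted p of 0.0036 and an adjusted p of 1.00 in limma. Ifit3 has a near-identical neighbour, Ifit3b, and whether its probe also reads that copy was not tested.

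Rsad2, the radical SAM enzyme, was at -3.92, -3.68 and -3.71 in the TG esophagi and at -2.73, -2.99 and -3.00 in the controls. The groups did not overlap and TG3 was not apart from TG1 and TG2. The difference was -0.86 (SE 0.24), with an unadjusted p of 0.0046 and an adjusted p of 1.00 in limma. The other 2 Rsad2 probes were also lower in TG without overlap, by -0.64 (SE 0.48) and -0.33 (SE 0.26). Groups that do not overlap with TG lower were seen in 2 of 8 members and in 6.13% of all units, and with TG higher in 0 of 8 and in 6.32%. With 3 arrays against 3, an exact permutation test of a single gene cannot go below 0.1.

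Slide 3 of the 5 slides held a TG and a CTR esophagus, TG1 and CTR2. Within it the difference was -0.81 for Ifit3 and -0.93 for Rsad2. When the slide was a fixed block, the differences were -0.89 (SE 0.27) and -0.75 (SE 0.26), neither passing the adjusted threshold.

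The esophagus of TG3 was the highest of the 6 esophagi in 6 of 8 members, beside 15.2% of all units. This esophagus was singled out by the same levels, so counts of members on it are a description and not a test. In 3 of 8 it was at least 1 above the next esophagus, beside 34 of 23199 units (0.147%). Isg15, Oas1a and Irf7 were the 3, and of these 34 units 9 more were on the other interferon pathway lists, 13 had no gene symbol and 9 had a symbol on no list. Under quantile normalization TG3 was likewise the highest in 6 members, with normexp background correction in 5, and in the authors' deposited table in 6. The share of all units with TG3 highest was 13.9%, 17.1% and 19.4% in these 3 scalings. In each of them 3 members stood at least 1 above the next esophagus, beside 26, 11 and 12 of all units, with Isg15 5.51-fold to 8.03-fold, Oas1a 5.93-fold to 7.68-fold and Irf7 2.39-fold to 3.10-fold.

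Without TG3 the direction of 5 members turned. All 8 were then lower in TG, from -0.29 (SE 0.31) for Usp18 to -1.09 (SE 0.22) for Ifit3, with Ifit1 at -0.96 (SE 0.37), Rsad2 at -0.90 (SE 0.28), Oas1a at -0.78 (SE 0.52), Isg15 at -0.56 (SE 0.49), Ifi44 at -0.49 (SE 0.63) and Irf7 at -0.33 (SE 0.35). None of the 8 passed the adjusted threshold in limma, beside 1 of 23268 units. An unadjusted p under 0.05 was seen in 3 of the 8, beside 727 of all units, and 52.4% of all units were lower. TG3 was singled out by the members' levels and was the highest in 6 of them, so leaving it out lowers the TG mean of those 6. These values and counts are a description and not a test. The sign of the genotype difference in Isg15, Oas1a, Irf7, Usp18 and Ifi44 thus rested on TG3. That of Ifi44 also turned without esophagus CTR2, to -0.20, and that of Ifit1 turned to 0.091 without esophagus TG1.

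**Figure D2:**
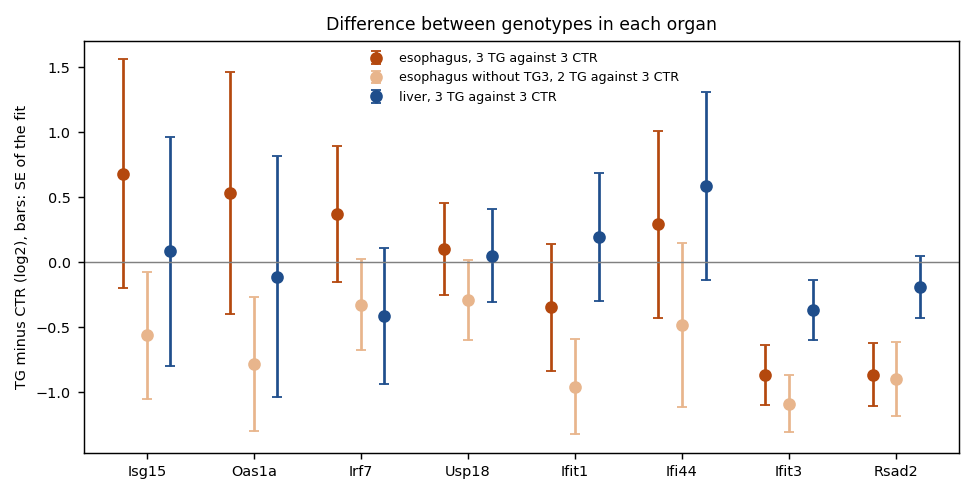
Difference between TG and CTR (log2, y axis) for each member (x axis) in esophagus, in esophagus without TG3 and in liver, with bars for the SE of the fit. Without TG3 all 8 esophagus values lie below 0, and in liver the values lie on both sides of 0.

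In Isg15, Oas1a, Irf7 and Usp18 the high esophagus of TG3 had no counterpart in the liver of the same mouse. Among the 6 livers, liver TG3 ranked the fifth for these genes and the lowest for Ifit3. It was at rank 3 for Ifit1, at rank 4 for Rsad2 and the highest for Ifi44. The level in esophagus TG3 was above that in its own liver by 3.27 for Oas1a, 2.34 for Isg15, 1.47 for Usp18, 0.88 for Ifit3, 0.34 for Ifit1 and 0.21 for Irf7. In Rsad2 and Ifi44 esophagus TG3 lay below its own liver, with differences of -2.36 and -1.18. RNA of the 2 organs was extracted with different kits, and the organ and the kit cannot be told apart in any comparison between them.

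In liver no member was called between genotypes, and 1 TG and 1 CTR liver were high together. No member passed the adjusted threshold, 0 of 8, beside 0 of 21252 units (0%), and at an unadjusted p under 0.05 the counts were 0 of 8 and 7.64% of all units (limma). The members were higher in TG for 4 of 8 with a median of -0.030, beside 66.5% of all units and a median of 0.13.

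Isg15 was at 0.54, 1.71 and 0.44 in livers TG1, TG2 and TG3 and at 1.69, 0.50 and 0.26 in CTR1, CTR2 and CTR3, a difference of 0.082 (SE 0.88). TG2 and CTR1 were high at nearly one level, and the other 4 livers lay between 0.26 and 0.54. Oas1a was at -1.91, -0.82 and -1.91 in the TG livers and -0.62, -2.36 and -1.32 in the controls, a difference of -0.11 (SE 0.93). The same livers, TG2 and CTR1, were again the highest. Ifit1 was at -2.04, -1.21 and -1.66 in the TG livers and at -1.40, -1.82 and -2.27 in the controls, with TG2 and CTR1 above the rest.

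TG2 and CTR1 were thus both above the other 4 livers in 3 of 8 members, beside 11.6% of all units, and the count was 3 under each of the other 3 scalings. The 2 livers were singled out by these same levels, so the count is a description and not a test. The mean of these 2 livers exceeded the mean of the other 4 by 1.26 in Isg15, 1.16 in Oas1a and 0.65 in Ifit1. They are the same 2 livers in which Per2 was low, and the part of this in the members' levels was not tested. Liver TG2 also shared slide 5 with esophagus TG3, whereas liver CTR1 was on slide 2.

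In the other members the livers did not split in this way. Irf7 was at -0.97, -0.36 and -1.05 in the TG livers and -0.21, -1.07 and 0.15 in the controls. Usp18 was at -0.32, -0.40 and -1.15 in TG and -0.42, -1.17 and -0.43 in CTR, with TG3 and CTR2 low. Ifi44 was at -2.15, -1.42 and -1.11 in TG and -1.50, -2.82 and -2.11 in CTR, and its difference of 0.58 (SE 0.72) was the widest of the 8. Rsad2 was at -1.88, -1.20 and -1.35 in TG and -1.16, -0.97 and -1.74 in CTR. All 4 overlapped between genotypes.

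Ifit3 was the exception, at 0.40, 0.41 and 0.29 in the TG livers and 0.79, 0.61 and 0.82 in the controls. The genotypes did not overlap, and TG was lower by -0.37 (SE 0.23, adjusted p = 0.68, limma). Groups without overlap and with TG lower were seen in 1 of 8 members and 2.88% of all units, and with TG higher in 0 of 8 and 8.44%. Ifit3 was therefore lower in TG without overlap in both organs of these mice, and neither difference passed the adjusted threshold. The share of all units with this in both organs was not counted, and the organs come from the same mice.

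The genotype difference was also compared between organs in the same fit. No member passed, 0 of 8 beside 0 of 24442 units (0%), and 0 of 8 beside 4.98% had an unadjusted p under 0.05. Rsad2 came nearest, with esophagus minus liver at -0.68 (SE 0.34, unadjusted p = 0.073, adjusted p = 0.94, limma). For Ifit3 the value was -0.50 (SE 0.33), for Irf7 0.78 (SE 0.74), for Oas1a 0.64 (SE 1.31) and for Isg15 0.60 (SE 1.24).

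The organs themselves differed in 4 members in control mice. Irf7 was lower in control esophagus than in control liver by -2.22 (SE 0.52, adjusted p = 0.0038), Rsad2 by -1.62 (SE 0.24, adjusted p = 0.00018) and Ifi44 by -1.99 (SE 0.72, adjusted p = 0.034), and Ifit3 was higher by 0.85 (SE 0.23, adjusted p = 0.0085), all in limma. For all 4 the 3 esophagi and the 3 livers did not overlap, though the share of all units doing so was not counted. These 4 of 8 stand beside 62.2% of all units, with 3 of 8 called lower beside 34.5% and 1 of 8 called higher beside 27.7%. Isg15 was lower in all 3 control esophagi, by -1.20 (SE 0.88), but did not pass, and Oas1a, Ifit1 and Usp18 overlapped between organs. The call of Rsad2 is that of its brightest probe. Another Rsad2 probe was at -0.36 (SE 0.48), overlapped between control organs and did not pass. The remaining Rsad2 probe was at -0.86 (SE 0.26, adjusted p = 0.015, limma).

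The call of Ifi44 was lost when the slide was a fixed block (adjusted p = 0.061) and without liver CTR1, liver CTR3, esophagus CTR2 or esophagus CTR3 (0.072 to 0.13). Within slide 1 its organ difference was -0.071 (esophagus CTR1 against liver CTR2). Within slide 2 it was -2.90 (esophagus CTR3 against liver CTR1). Each sets 1 array against 1 of another mouse, so organ and mouse cannot be told apart in them. Isg15 passed when the slide was a fixed block, at -1.45 (adjusted p = 0.043), and in the fit without esophagus TG3 (adjusted p = 0.038), where its difference was the same -1.20 with a smaller SE of 0.44.

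In TG mice 3 members were called, each lower in esophagus, beside 38.8% of all units called lower and 24.3% called higher: Rsad2 by -2.29 (SE 0.24, adjusted p = 1.4e-05), Ifi44 by -2.28 (SE 0.72, adjusted p = 0.018) and Irf7 by -1.44 (SE 0.52, adjusted p = 0.034) in limma. The 3 of 8 stand beside 63.1% of all units. The other Rsad2 probes were also lower in TG esophagus than in TG liver. They were at -1.33 (SE 0.48, adjusted p = 0.033) and -1.21 (SE 0.26, adjusted p = 0.0022) in limma. Ifit3 was at 0.35 (SE 0.23) and did not pass, although its organs did not overlap. The share of all units without overlap between TG organs was not counted. The organ difference of Ifit3 was not shown to differ between genotypes by the comparison given above. The count rose to 5 without esophagus TG3, when Isg15 (-1.84) and Ifit1 (-1.52) also passed, and fell to 1 without esophagus TG1 or without esophagus TG2. Leaving out liver TG1 or liver TG2 ended the call of Irf7 (adjusted p = 0.055 and 0.10), leaving out liver TG3 ended that of Ifi44 (0.052), and without esophagi TG1 and CTR1 together Irf7 was not called (0.15). With the mouse as a fixed block, which pairs the liver and esophagus of one animal, Irf7 was no longer called in TG (adjusted p = 0.064), and the count fell to 2. Slide 3 held both organs of TG1, whereas slide 5 held esophagus TG3 and liver TG2, so each within-slide value sets 1 array against 1. Within slide 3 the organ difference of Rsad2 in TG was -2.04, and within slide 5 it was -2.51. That of Ifi44 was -2.80 within slide 3 and -0.87 within slide 5, and that of Irf7 was -1.86 and -0.48.

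**Figure D3:**
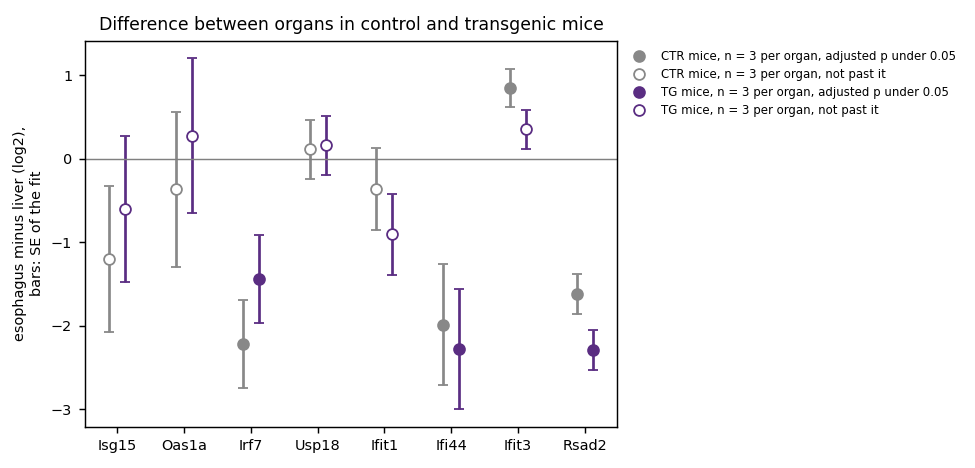
Esophagus minus liver (log2, y axis) for each member (x axis) in control and transgenic mice, with bars for the SE of the fit and filled points where the adjusted p was under 0.05. Irf7, Ifi44 and Rsad2 lie below 0 with filled points in both genotypes, and Ifit3 is filled above 0 in controls only.

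By level, Rsad2 ran from liver CTR (-1.29 ± 0.40, SD, n = 3) over liver TG (-1.48 ± 0.36) and esophagus CTR (-2.91 ± 0.15) to esophagus TG (-3.77 ± 0.13). The livers overlapped each other, and the 2 lower steps were without overlap by the probe that stands for the gene. In another Rsad2 probe liver CTR and esophagus CTR overlapped. Irf7 ran from liver CTR (-0.38 ± 0.63) and liver TG (-0.79 ± 0.38) to esophagus TG (-2.23 ± 1.21) and esophagus CTR (-2.60 ± 0.093), and each neighbour in this order overlapped. Ifit3 ran the other way, from esophagus CTR (1.59 ± 0.36) through liver CTR (0.74 ± 0.11) and esophagus TG (0.72 ± 0.39) to liver TG (0.37 ± 0.066). Its first and last steps were without overlap, and liver CTR and esophagus TG overlapped. In Isg15, Oas1a, Usp18, Ifit1 and Ifi44 every neighbour in the order of the 4 groups overlapped.

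Other genes of the pathway were taken from lists of ligands, receptors, signalling components, sensors and targets. In both comparisons of TG with CTR none of their tested genes passed the adjusted threshold in limma. At an unadjusted p under 0.05 in esophagus they were 2 of 44 other type I response genes and 2 of 19 sensing genes. They were 0 of 8 ligands, 6 receptors, 12 signalling genes and 31 interferon gamma response genes, beside 3.85% of all units. In liver they were 2 of 40 type I response genes, 1 of 18 sensing genes and 1 of 12 signalling genes. The liver counts were 0 of 7 ligands, 5 receptors and 31 interferon gamma response genes, beside 7.64% of all units. Among the type I response genes in esophagus the smallest p was that of Oasl1, an oligoadenylate synthetase-like gene, at 1.12 (SE 0.29), and next was Ifi204, a DNA-binding protein of the same response, at -0.75 (SE 0.24). Among the sensing genes in esophagus it was Trim25, the ubiquitin ligase that activates RIG-I, at 0.59 (SE 0.19). In liver the smallest p of the type I list was that of Ube2l6, the conjugating enzyme of Isg15, at -0.87 (SE 0.27), and next was Ifi27 at 0.47 (SE 0.20), and that of the sensing list was Cgas, a DNA sensor, at 0.69 (SE 0.26).

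Across these lists esophagus TG3 was the highest esophagus in 23 of 44 other type I response genes, 8 of 19 sensing genes and 14 of 31 interferon gamma response genes, beside 15.2% of all units. It was the highest in 2 of 8 ligands, 2 of 6 receptors and 3 of 12 signalling genes. At least 1 above the next esophagus were 7 type I response genes, 1 sensing gene and 1 interferon gamma response gene. Apol9b, an apolipoprotein L family gene with near-identical copies, was 7.80-fold above it. The oligoadenylate synthetases Oas1f, Oas2 and Oas3 were 5.15-fold, 5.05-fold and 4.65-fold above it, and Oasl2 was 2.01-fold. Rtp4, a chaperone of receptors that is induced by interferon, was at 2.68-fold, the chemokines Cxcl10 and Cxcl9 were at 2.50-fold and 2.19-fold, and Dhx58, the RNA sensor LGP2, was at 2.49-fold.

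Leukocyte markers were counted on the same array, again beside 15.2% of all units. Esophagus TG3 was the highest in 0 of 7 T cell markers, 0 of 6 dendritic cell markers, 0 of 6 markers of plasmacytoid dendritic cells, 0 of 4 neutrophil markers, 1 of 7 macrophage markers, 1 of 5 B cell markers and 1 of 1 NK cell marker. The median of the T cell list in TG esophagi lay between -1.02 and -0.26 relative to the control mean, with the controls between -0.30 and 0.40. That of the dendritic cell list lay between -0.87 and -0.018, with the controls between -0.16 and 0.15, and both lists overlapped between genotypes. The median of the hepatocyte list in TG esophagi lay between -1.37 and -0.99, with the controls between -0.55 and 0.34. It did not overlap, though only 2 of its 5 genes were above background on esophagus TG2 and 4 on TG1. The median of the sensing list did not overlap either, at 0.12 to 0.24 in TG esophagi and -0.035 to 0.051 in controls. How often other sets of genes do so was not counted. The part of these marker levels in the members' values was not tested.

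In liver, TG2 and CTR1 were both above the other 4 in 23 of 40 other type I response genes and 8 of 18 sensing genes, beside 11.6% of all units. They were so in 6 of 31 interferon gamma response genes, 3 of 5 receptors, 4 of 12 signalling genes and 0 of 7 ligands. Of the leukocyte markers, 2 of 4 neutrophil, 2 of 8 macrophage, 1 of 7 T cell, 1 of 5 plasmacytoid dendritic cell, 0 of 6 dendritic cell, 0 of 5 B cell and 0 of 1 NK cell markers were so. The neutrophil list had medians relative to the control mean of 1.70 in TG2 and 1.95 in CTR1 and of -1.11 to 1.24 in the other livers. Liver TG3 had the highest median in the T cell (1.29), B cell (1.00), NK cell (1.62), dendritic cell (0.30) and plasmacytoid dendritic cell (0.32) lists. Over all units the median of liver TG3 was 0.22. The macrophage list was highest in TG2 (0.48), then CTR3 (0.40) and CTR1 (0.28). The part of these markers in the members' levels was not tested.

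**Figure D4:**
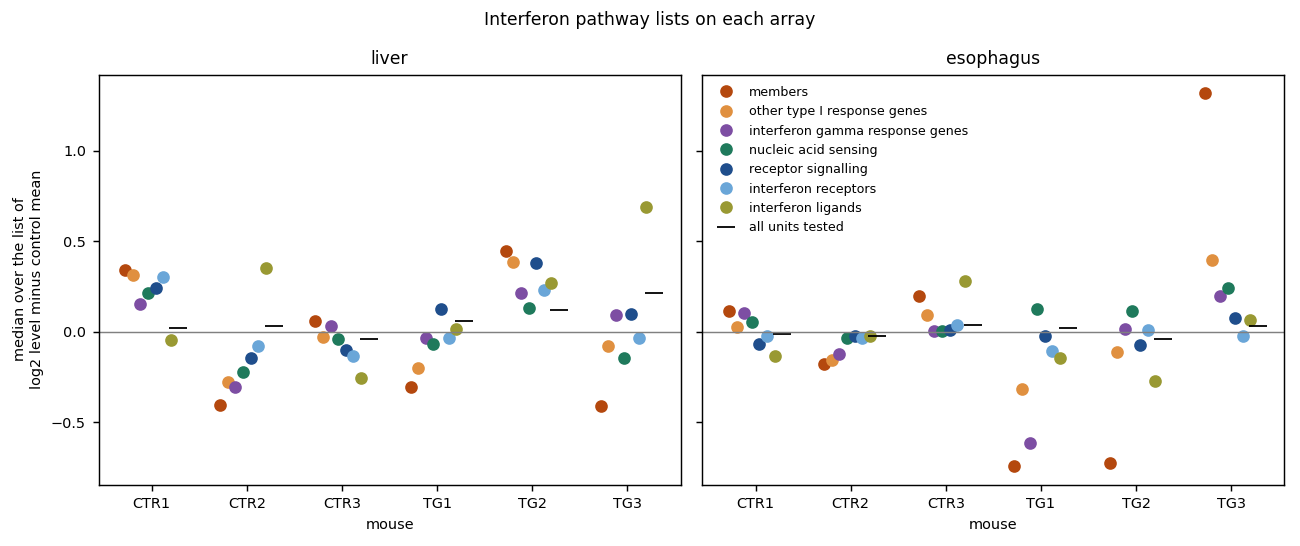
Median over each pathway list of the log2 level minus the mean of the 3 controls of the organ (y axis) for each mouse (x axis), with liver on the left, esophagus on the right and all tested units as dashes. The members lie at 1.32 on esophagus TG3 and at -0.74 and -0.73 on TG1 and TG2, and in liver at 0.44 on TG2 and 0.34 on CTR1.

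Between control organs 27.7% of all units were called higher and 34.5% lower in esophagus, the shares beside which the list counts stand. The receptors all differed, 4 called higher and 2 lower of 6 tested. Ifnlr1, the lambda interferon receptor chain of epithelia, was higher by 4.95 (SE 0.32), and its partner Il10rb by 1.93 (SE 0.26). The type I receptor chains were lower in esophagus, Ifnar2 by -2.84 (SE 0.22) and Ifnar1 by -0.72 (SE 0.18). Of the 12 signalling genes 3 were called higher and 6 lower, with Stat2, a transcription factor of the pathway, at -2.42 (SE 0.32) and the inhibitor Socs1 at 1.63 (SE 0.15). Of the 44 other type I response genes 9 were called higher and 19 lower, among the latter the membrane tether Bst2 at -3.83 (SE 0.29) and the membrane protein Ifitm3 at -2.62 (SE 0.24). Of the 19 sensing genes 1 was called higher, the DNA sensor Cgas at 2.84 (SE 0.26), and 9 lower, and of the 31 interferon gamma response genes 5 were called higher and 16 lower. The median over the type I list was -0.36 and over the members -0.78, beside -0.14 over all units.

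The genes most like the members were sought by centring each organ on its 6 arrays and correlating every unit with the mean of the centred members over the 12 arrays, for 17222 units well above background on all of them. The 8 named genes with the highest Pearson r were Oas1f (0.96), Oasl2 (0.94), Rtp4 (0.91), Apol9b (0.91), Bst2 (0.85), Iigp1 (0.84), Dhx58 (0.83) and Golt1a (0.83). The first 5 were on the type I list, Iigp1 on the interferon gamma list and Dhx58 on the sensing list, and Golt1a, a Golgi transport gene, was on none. Esophagus TG3 lay at 1.31 in the centred mean of the members, the next highest being liver CTR1 at 0.43, so r rests in part on that array. Without it, over 11 arrays, the r of the 8 genes ran from 0.61 for Dhx58 to 0.88 for Oas1f.

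Among the members themselves, the r of each with the mean that includes it was highest in Oas1a (0.97) and Isg15 (0.92), then Ifit1 (0.89), Irf7 (0.85), Usp18 (0.81) and Ifi44 (0.80). It was 0.44 in Ifit3 and 0.14 in Rsad2, the 2 members in which TG3 was not the highest esophagus. Without esophagus TG3 these 2 were at 0.70 and 0.65, above Ifi44 (0.62), Usp18 (0.59) and Irf7 (0.59) and below Oas1a (0.94), Ifit1 (0.86) and Isg15 (0.78). The windows of Ifit3 and Rsad2 held the same motif as those of Isg15, Oas1a and Ifit1. Irf7 and Ifi44 held none in their windows, and no window was given for Usp18. The part of the motif in these levels was not tested.

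**Figure D5:**
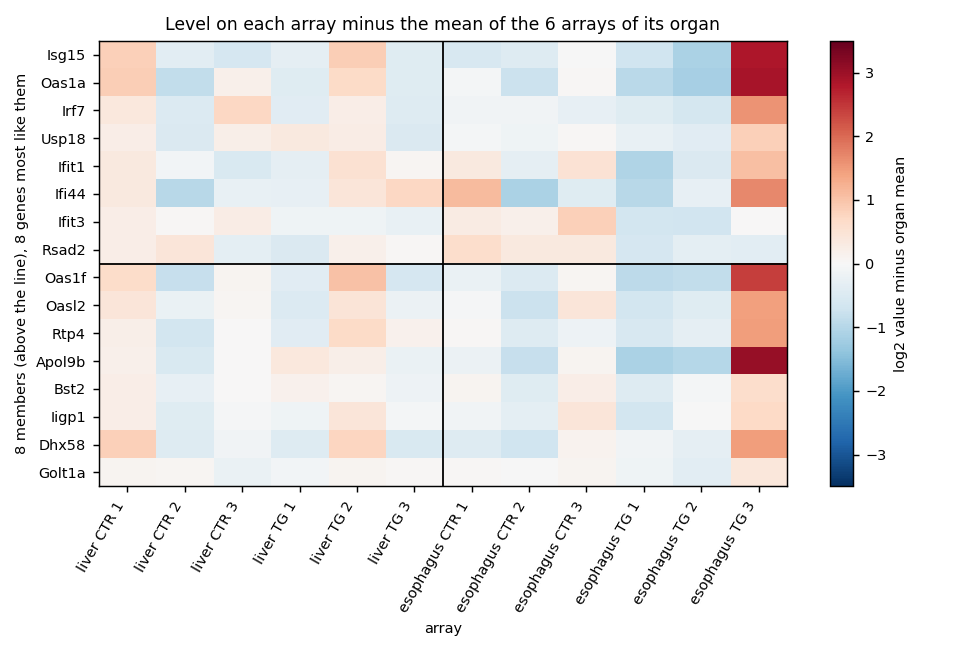
Log2 level minus the mean of the 6 arrays of the organ (colour) for the 8 members and the 8 genes most like them (rows) on the 12 arrays (columns). Esophagus TG3 is red in most rows, with Apol9b at 3.05, and livers CTR1 and TG2 are light red in Isg15, Oas1a, Oas1f and Dhx58.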

How the data were processed

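Total RNA was hybridised in one colour to Agilent 4x44K mouse arrays. Per the file headers, Agilent Feature Extraction 10.7.1.1 made the deposited intensity values, subtracting background within each array. A table of log2 values, also deposited by the authors, correlated at 0.9999 or higher with quantile-normalized normexp values of the same arrays and is not centred (column medians 7.27). The submitters' processing notes name limma, with no version.

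Control spots and 1311 outlier spots were left out, and 0 spots were saturated. Processed signals were put on the log2 scale and reduced by the 75th percentile of their array. Precision is limited by the 3 arrays per group. The brightest probe stood for a gene, and the 17800 probes without a symbol stayed as units. A unit had to be well above background on every array of 1 of the 2 groups compared. All 12 arrays entered one limma fit (version 3.58.1 in R 4.3.3, with jsonlite 2.0.0) with 4 groups and no block, two-sided, adjusted by Benjamini-Hochberg at 0.05. The code was tested on simulated data. The series calls the mice biological replicates.

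Named are all members, for each list up to 4 genes with the smallest p per comparison, and the 8 genes most like the members. The genes at least 1 above the next esophagus on TG3 were named with their values known, like Per2. Esophagus TG3 and livers TG2 and CTR1 were set apart with the members' levels known. The members and the lists were chosen with earlier results of these data known. Alternatives were normexp, quantile normalization, the deposited table, no filter, a common floor and the mean of probes. Others were the slide or mouse as a block, single organs and each array left out. Normexp ran on median signals because the scanner output held no mean signals. Promoters came from RefSeq tables, and Python 3.11.15 drew the figures (matplotlib 3.10.9, pandas 2.3.3).

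Liver and esophagus of one mouse are paired by the labels, and their deviations from the group means correlated at -0.064 to 0.16. TG and CTR mice of one number correlated at -0.15 to 0.090, so the number does not pair genotypes.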

Additional observations from a re-analysis of the deposited data

How the results depend on the processing

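Under every alternative run, 0 of 8 members were called between genotypes in either organ or in the difference between organs, and 4 were called between control organs, or 3 to 5 with single arrays left out. Over all units, 0 calls in TG against CTR esophagus became 4 with normexp, 2 with the common floor, the deposited table or without esophagi TG1 and CTR1 (chosen after seeing the data), 1 with the organ alone, quantile normalization or the slide as a fixed block, and 0 to 7 with single arrays left out. In liver they were 0 to 7 with single arrays left out. In the difference between organs they became 1 with the common floor, the deposited table, normexp or quantile normalization, and 0 to 1 with single arrays left out. With arrays left out in turn, 1 to 5 members were called between TG organs.

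Some directions turned, each among values that did not pass. When the slide was a fixed block, the esophagus values became -0.19 for Irf7 and -0.20 for Usp18. The liver values became -0.70 for Isg15 and -0.18 for Usp18. For Usp18 the difference between organs in TG minus CTR became -0.018. With normexp Ifi44 in esophagus became -0.031 and Isg15 in liver -0.081. In the deposited table liver Isg15 became -0.057 and Usp18 -0.011, and quantile normalization gave Usp18 -0.017. The mean of probes gave liver Rsad2 0.058. Without esophagi TG1 and CTR1, Ifit1 in esophagus became 0.18, and the difference between organs in TG minus CTR became 0.88 for Ifi44. The cause was not tested.

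With single arrays left out, other directions turned, also among values that did not pass. In TG against CTR esophagus the ranges were -0.49 to 0.91 for Ifi44, -0.96 to 0.091 for Ifit1, -0.33 to 0.77 for Irf7, -0.56 to 1.40 for Isg15, -0.78 to 1.25 for Oas1a and -0.29 to 0.33 for Usp18. In liver they were -0.028 to 0.41 for Ifit1, -0.32 to 0.52 for Isg15, -0.57 to 0.30 for Oas1a, -0.41 to 0.014 for Rsad2 and -0.20 to 0.31 for Usp18. For the difference between organs they were -1.07 to 0.33 for Ifi44, -0.65 to 1.32 for Isg15, -0.67 to 1.36 for Oas1a and -0.34 to 0.30 for Usp18. Between organs in TG they were -1.84 to 0.12 for Isg15, which passed without TG3, -1.04 to 0.99 for Oas1a and -0.23 to 0.39 for Usp18, and in CTR -0.83 to 0.039 for Oas1a and -0.13 to 0.24 for Usp18.

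With the replicate number as a fixed block, TG against CTR gave 0 calls among the members and 0 among all units in either organ. The random mouse block changed no call of a member, and the fixed mouse block changed only that of Irf7 between TG organs. All members were well above background on all 12 arrays by the probe that stands for the gene.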
